A study of Homo sapiens with 6 samples.

Results

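Caspases are the proteases that take a cell apart during programmed death, and this account covers the 7 genes of the count table that carry the symbols CASP2, CASP4, CASP6, CASP8, CASP9, APAF1 and XIAP, out of 17297 genes in all. They were taken by symbol from a list of names, and all 7 were found. The list was chosen with earlier results of these data known. RNA-seq was performed in LNCaP, a human prostate cancer cell line, transduced with the pBabe puromycin vector alone (pBabe-vector, genotype WT) or with the same vector carrying wild-type GNA13 cDNA (pBabe-GNA13), with 3 biological replicates of each. GNA13 encodes Gα13, the alpha subunit of a heterotrimeric G protein. Both lines were grown as attached cells for 48 h in serum-containing RPMI, both carry the retroviral vector, and both were kept under puromycin selection. Each condition is 1 stable line, and whether a line was a clone or a pool was not found in the methods.

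Initiator caspases are inactive until they are brought together on a platform. CASP9 is activated on the apoptosome, which APAF1 builds when cytochrome c leaves the mitochondria, and CASP8 is activated below death receptors such as FAS. CASP2 is recruited by the PIDDosome. CASP6 is an executioner caspase that cleaves lamins among other proteins. CASP4 is an inflammatory caspase that senses bacterial lipopolysaccharide in the cytosol and cleaves gasdermin D. XIAP is an inhibitor protein that binds and blocks CASP9 among other caspases.

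Library totals ranged from 33002160 to 40628970 counts. GNA13 itself had 818 ± 69.6 CPM (SD, n = 3) in pBabe-GNA13 and 70.5 ± 5.72 CPM in pBabe-vector, a log2 fold change of 3.54 (adjusted p = 9.12e-05 in edgeR). All 8 luminal prostate markers that were looked up, among them KLK3, KRT8 and KRT18, were in the table at means above 200 CPM in both lines. Of the leukocyte markers, PTPRC, CD3E and LYZ were not in the table used here, and CD14 was at 0.152 ± 0.0473 CPM in pBabe-GNA13 and 0.0520 ± 0.0376 CPM in pBabe-vector (SD, n = 3). Of the fibroblast and endothelial markers, PECAM1 was not in the table used here and DCN was at or below 0.0760 CPM on average, while COL1A1 was at 18.6 ± 3.03 against 19.2 ± 6.73 CPM and VWF at 23.6 ± 8.17 against 15.4 ± 7.73 CPM (SD, n = 3). VWF, also on chromosome 12, was higher in 3 of 3 pairs, with an adjusted p of 8.57e-06 in edgeR when the pairs were taken as a block. The part of these markers in the results on caspases was not tested. In bulk RNA, fewer cells of a type and less RNA per cell cannot be told apart.

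The libraries form pairs across the lines: the libraries whose headings carry the tag std (the pBabe-GNA13 std library and pBabe-vector replicate 1), those of replicate 2 and those of replicate 3. Expression is given as CPM, the count of a gene scaled to its library by TMM. The lines were compared in edgeR by the quasi-likelihood test, fitted to the whole table, and a gene was called at a Benjamini-Hochberg adjusted p under 0.05. A second fit took the 3 pairs as a block. The log2 fold change (log2FC) is given with its standard error (SE), and is positive where expression was higher in pBabe-GNA13.

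In LNCaP cells, none of the 7 genes was called without the block, where 24 of 17297 genes (0.139%) were. At an unadjusted p under 0.05 there were 2, APAF1 and CASP6, beside 8.46% of all genes, and DESeq2 called 0 as well. With the pairs as a block, APAF1 and CASP6 were called, both higher in pBabe-GNA13. Of all genes 19.7% were called in that fit, 9.32% higher and 10.4% lower, so that 2 of 7 is not by its number a result about these genes. The median log2FC of the 7 genes was 0.19, with 5 above 0 and 2 below, beside a median of −0.0013 over all genes tested. Since the 7 were chosen with earlier results known, this comparison is a description only. The lines did not overlap for 3 of the 7, with APAF1 and CASP6 higher in each pBabe-GNA13 library (7.3% of all genes behave so) and CASP2 lower in each (6.79%). Going by pairs, CASP4, CASP6, CASP9 and APAF1 were higher in 3 of 3 pairs, as were 22.6% of all genes, and CASP2 was lower in 3 of 3, as were 25.3%. With 3 libraries a line, the lowest p of an exact permutation test is 0.10.

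**Figure D1:**
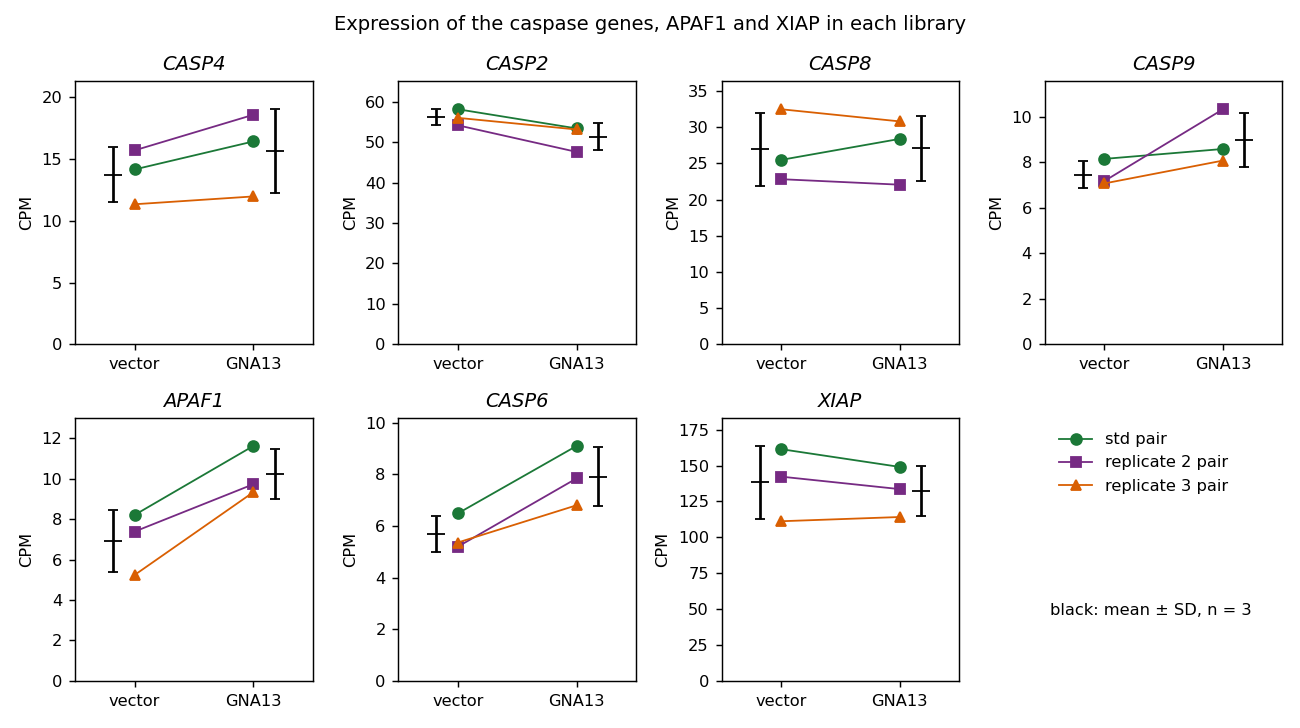
CPM (linear axis from 0) of each of the 7 genes in pBabe-vector and pBabe-GNA13. Coloured points are libraries, lines join the libraries of a pair, and black bars are the mean ± SD of 3 libraries. APAF1 and CASP6 go up in each pair with no overlap between the lines. CASP2, CASP4, CASP8, APAF1 and XIAP keep the same order of pairs in both lines.

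APAF1 had the largest log2FC of the 7 genes with all 6 libraries, both without and with the block, but CASP6 was above it when chromosomes were centred (0.52 against 0.27 with the block), without pBabe-vector replicate 3 (0.44 against 0.39) and, with the block, without the replicate 3 pair (0.55 against 0.46). APAF1 is on chromosome 12 (GRCh38), from 98645290 to 98735433 (plus strand, Gencode 44) and encodes the scaffold of the apoptosome. Its expression was 11.6 CPM in the std library, 9.72 CPM in replicate 2 and 9.33 CPM in replicate 3 of pBabe-GNA13, and 8.20, 7.38 and 5.24 CPM in replicates 1, 2 and 3 of pBabe-vector. Each library of pBabe-GNA13 was above each library of pBabe-vector (exact permutation test, two-sided p = 0.10). The mean was 10.2 ± 1.22 CPM against 6.94 ± 1.53 CPM (SD, n = 3), which is 1.47-fold, or a log2FC of 0.56 (SE 0.20, adjusted p = 0.464 in edgeR). With the block it was 0.57 (SE 0.11, adjusted p = 0.000394 in edgeR), and the log2 ratios of the std, replicate 2 and replicate 3 pairs were 0.50, 0.39 and 0.83. APAF1 was still called with the block when each pair was left out in turn (adjusted p in edgeR at most 0.0102). It was not called by limma-trend with the same block (adjusted p = 0.0873), limma being the tool of the study's own analysis. The annotated exons of APAF1 share 750 bp with ANKS1B on the opposite strand, and whether strand was used in counting was not found in the methods. ANKS1B was at 3.97 ± 1.07 against 3.01 ± 0.744 CPM (SD, n = 3), with a log2FC of 0.40 (adjusted p = 0.832 in edgeR, or 0.121 with the block).

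The genes around APAF1 were higher too. Of the 620 genes of chromosome 12 with a mean of at least 1 CPM, 93.7% had a positive log2FC, and their median was 0.30. No other chromosome had a median over 0.12. The 20 such genes nearest to APAF1, all within 3.23 Mb of its start, lay between 0.05 and 0.42 with a median of 0.27. With the block 15 of the 20 were called higher, beside 9.32% of all genes. APAF1 was above all 20, and above 91.3% of the 619 other genes of its chromosome. When each chromosome was centred on its median and the block was kept, a fit that called 13.9% of all genes, APAF1 had a log2FC of 0.27 and was not called (adjusted p = 0.105 in edgeR). The cause of this shift of the chromosome was not tested.

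**Figure D2:**
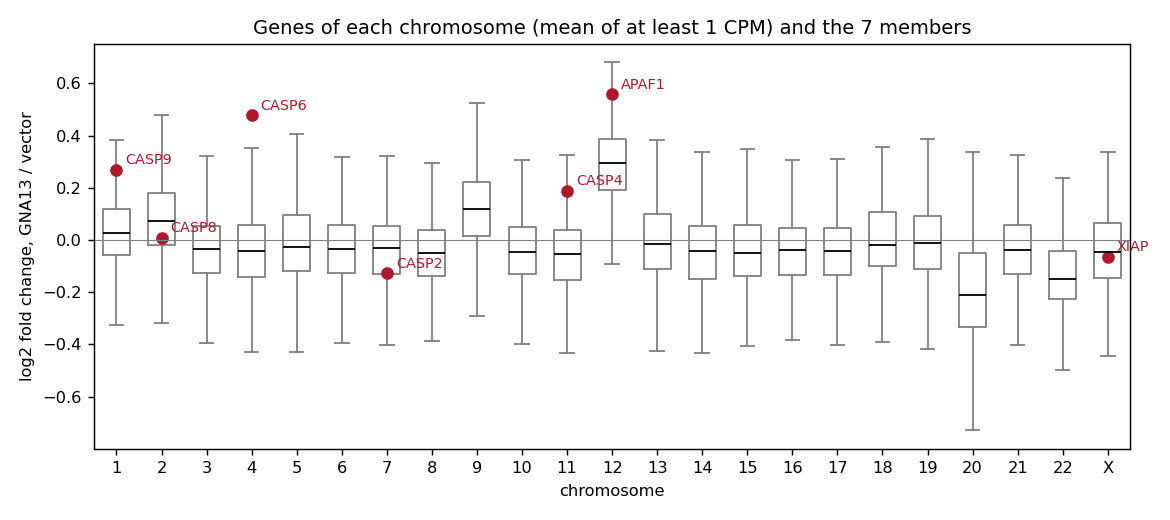
Log2 fold change (pBabe-GNA13 over pBabe-vector, fit without the block) of genes with a mean of at least 1 CPM, by chromosome. Boxes are quartiles with the median, whiskers reach 1.5 times the box or the last gene within it, outliers are not drawn, and red points are the 7 genes. The box of chromosome 12 lies above 0, with APAF1 above it at 0.56, and CASP6 lies far above the box of chromosome 4.

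CASP6 was higher while most of its chromosome was not. This executioner caspase is on chromosome 4 from 109688622 to 109703583 (minus strand). In pBabe-GNA13 it was at 9.10 CPM in the std library, 7.84 CPM in replicate 2 and 6.80 CPM in replicate 3, and in pBabe-vector at 6.49, 5.20 and 5.36 CPM in replicates 1, 2 and 3. The lowest pBabe-GNA13 library was above the highest pBabe-vector library, by a small margin (exact permutation test, two-sided p = 0.10). Mean expression was 7.92 ± 1.15 CPM against 5.68 ± 0.702 CPM (SD, n = 3), 1.39-fold, with a log2FC of 0.48 (SE 0.18, adjusted p = 0.483 in edgeR). The block gave 0.48 (SE 0.12, adjusted p = 0.00398 in edgeR), with ratios of 0.49 in the std pair, 0.59 in replicate 2 and 0.34 in replicate 3. With the block, CASP6 was called again without any 1 pair (adjusted p in edgeR at most 0.0318), but not by limma-trend with the block (adjusted p = 0.0824).

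The 20 nearest genes with at least 1 CPM had a median of −0.10, and only 5 of them were above 0. Of these, 1 was above CASP6, at 0.67. CASP6 was above 97.2% of the 424 other genes of chromosome 4, whose median was −0.04. With chromosomes centred in the blocked fit, CASP6 was the 1 of the 7 genes that was called, with a log2FC of 0.52 (adjusted p = 0.00262 in edgeR). Its exons share 98 bp with MCUB on the opposite strand, listed under its older symbol CCDC109B, which had 0.335 ± 0.156 CPM against 0.241 ± 0.188 CPM (SD, n = 3), far less than CASP6 itself.

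The promoters of these 2 genes and of CASP4, which was not called, are shown as examples. Those of CASP2, CASP8, CASP9 and XIAP were not compared. What sets the promoters of called genes apart can therefore not be read from these sequences. They are taken from the RefSeq windows of GRCh38.p14 and written 5′ to 3′ on the strand of the gene, each as the longest stretch of the 250 bases before the start that holds no annotated exon. The start is that of RefSeq, which for CASP6 and CASP4 lies inside the gene span of Gencode given here, and the printed stretch of CASP4 lies inside that span as well. Capitals mark matches to the motifs searched.

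APAF1 (chr12:98645114-98645289, plus strand, ending at the base before the start): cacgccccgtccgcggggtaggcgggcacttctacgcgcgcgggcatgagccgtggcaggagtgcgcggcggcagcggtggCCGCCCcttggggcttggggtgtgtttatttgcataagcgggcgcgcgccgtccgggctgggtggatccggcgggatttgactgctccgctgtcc
CASP6 (chr4:109703584-109703695, minus strand, ending 138 bases before the start): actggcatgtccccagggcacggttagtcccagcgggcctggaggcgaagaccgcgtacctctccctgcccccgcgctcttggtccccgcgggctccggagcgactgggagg
CASP4 (chr11:104968729-104968824, minus strand, ending 154 bases before the start): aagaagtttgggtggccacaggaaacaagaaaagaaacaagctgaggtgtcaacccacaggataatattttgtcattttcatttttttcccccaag

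Over the full 250 bases, G and C made up 73.6% of the APAF1 promoter, 74.0% of that of CASP6 and 38% of that of CASP4, beside a median of 58.0% over 35116 windows. The GC box GGGCGG, searched on both strands, had 1 match in APAF1, 3 in CASP6 and 1 in CASP4, and 42.6% of all windows hold it. The CCAAT motif had 1, 0 and 2 matches (32.0% of windows), and TATAAA had none in these 3 genes (10.7%). Both motifs were searched on both strands as well. Matches outside the printed stretches are counted, and they describe letters only.

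CASP4, the inflammatory caspase, varied between replicates, and its lines overlapped. It lies on chromosome 11 from 104942866 to 104969366 (minus strand). The pBabe-GNA13 libraries had 16.4 CPM (std), 18.6 CPM (replicate 2) and 11.98 CPM (replicate 3), and the pBabe-vector libraries 14.2, 15.7 and 11.3 CPM (replicates 1, 2 and 3). Replicate 3 was the lowest and replicate 2 the highest in both lines, so the lines overlapped although each pair was higher in pBabe-GNA13. The mean was 15.7 ± 3.38 CPM against 13.7 ± 2.21 CPM (SD, n = 3), a log2FC of 0.19 (SE 0.20, adjusted p = 0.915 in edgeR, exact permutation p = 0.40). With the block it was 0.18 (SE 0.09, adjusted p = 0.144 in edgeR), and relative to its chromosome 0.23 (adjusted p = 0.0710 in edgeR). On the log2 CPM scale, the means of the 3 pairs had a range of 0.55, and the mean difference between the lines was 0.18. A range and a mean difference are unlike measures. CASP4 was nevertheless above 93.6% of the 686 other genes of chromosome 11. Most of its 20 nearest genes with at least 1 CPM were lower in pBabe-GNA13, as for CASP6. Their median was −0.13, with 3 above 0 and 1 at or above CASP4.

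The profiles most like that of CASP4 over the 6 libraries, by the root mean square difference of log2 CPM centred on each gene's mean, were those of ZNF444 (0.0406), STAP2 (0.0445), THNSL2 (0.0457), KIAA0355 (0.0460) and TMEM8B (0.0490), out of 14058 genes ranked. ZNF444, STAP2 and KIAA0355 are on chromosome 19, THNSL2 on 2 and TMEM8B on 9. Of these, STAP2, THNSL2 and TMEM8B were called with the block (adjusted p = 0.000991 in edgeR, 0.0126 and 0.0499), at log2FCs of 0.25, 0.19 and 0.19 in that fit. Of all genes 19.7% were called there. The ranking includes the difference between the lines, so log2FCs near that of CASP4 follow from the choice.

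Among the initiators, CASP9, which works with APAF1, is on chromosome 1 from 15490832 to 15526534 (minus strand). It was at 8.59 CPM (std), 10.3 CPM (replicate 2) and 8.08 CPM (replicate 3) in pBabe-GNA13 and at 8.15, 7.18 and 7.07 CPM in replicates 1, 2 and 3 of pBabe-vector. Of the pBabe-GNA13 libraries, only replicate 3 lay within the range of pBabe-vector, and replicate 2 stood highest. The mean was 9.01 ± 1.18 against 7.47 ± 0.597 CPM (SD, n = 3), a log2FC of 0.27 (SE 0.16, adjusted p = 0.754 in edgeR, exact permutation p = 0.20). With the block it was 0.26 (adjusted p = 0.105 in edgeR), with 0.08, 0.52 and 0.19 in the std, replicate 2 and replicate 3 pairs. The exons of CASP9 share 101 bp with CELA2B on the opposite strand, which was not in the table used here. Leaving out pairs moved the blocked value of CASP9 both ways. It was 0.37 and called without the std pair (adjusted p = 0.0333 in edgeR), 0.13 without the replicate 2 pair (0.641) and 0.31 without the replicate 3 pair (0.162).

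CASP8, the death receptor caspase, is on chromosome 2 from 201233443 to 201361836 (plus strand). Its level was 28.4 CPM (std), 22.1 CPM (replicate 2) and 30.8 CPM (replicate 3) in pBabe-GNA13, and 25.5, 22.8 and 32.5 CPM in replicates 1, 2 and 3 of pBabe-vector. Replicate 2 was lowest and replicate 3 highest in both lines, the pairs spanning 0.49 on the log2 CPM scale against 0.01 between the lines. Mean expression was 27.1 ± 4.52 against 26.9 ± 5.00 CPM (SD, n = 3), a log2FC of 0.01 (SE 0.18, edgeR adjusted p = 1) and 0.01 with the block (SE 0.07, adjusted p = 0.948 in edgeR). A long noncoding RNA of the same strand shares 343 bp with its exons. FLACC1 on the opposite strand, listed as ALS2CR12, overlaps its span but no exon, and had 0.0860 ± 0.0314 against 0.0872 ± 0.104 CPM (SD, n = 3).

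CASP2, the PIDDosome caspase, is on chromosome 7 from 143288215 to 143307696 (plus strand). The 3 pBabe-GNA13 libraries had 53.4, 47.6 and 53.1 CPM (std, replicate 2, replicate 3), all below the 58.2, 54.2 and 56.0 CPM of pBabe-vector replicates 1, 2 and 3. Its standard error without the block was the smallest of the 7 genes, and its mean was 51.4 ± 3.28 against 56.1 ± 1.99 CPM (SD, n = 3). The log2FC was −0.13 (SE 0.09, adjusted p = 0.845 in edgeR, exact permutation p = 0.10), and −0.13 with the block (SE 0.05, adjusted p = 0.0990 in edgeR). It was not called in either fit.

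XIAP, the inhibitor, is on chromosome X from 123859712 to 123913972 (plus strand) and had the most reads of the 7 genes. It was at 149 CPM (std), 134 CPM (replicate 2) and 114 CPM (replicate 3) in pBabe-GNA13, and at 161, 142 and 111 CPM in replicates 1, 2 and 3 of pBabe-vector. The std libraries were highest and replicate 3 lowest in both lines, with a span of 0.46 over the pairs on the log2 CPM scale against −0.06 between the lines. The mean was 132 ± 17.5 against 138 ± 25.4 CPM (SD, n = 3), a log2FC of −0.06 (SE 0.16, adjusted p = 0.993 in edgeR) and −0.06 with the block (SE 0.05, adjusted p = 0.520 in edgeR).

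**Figure D3:**
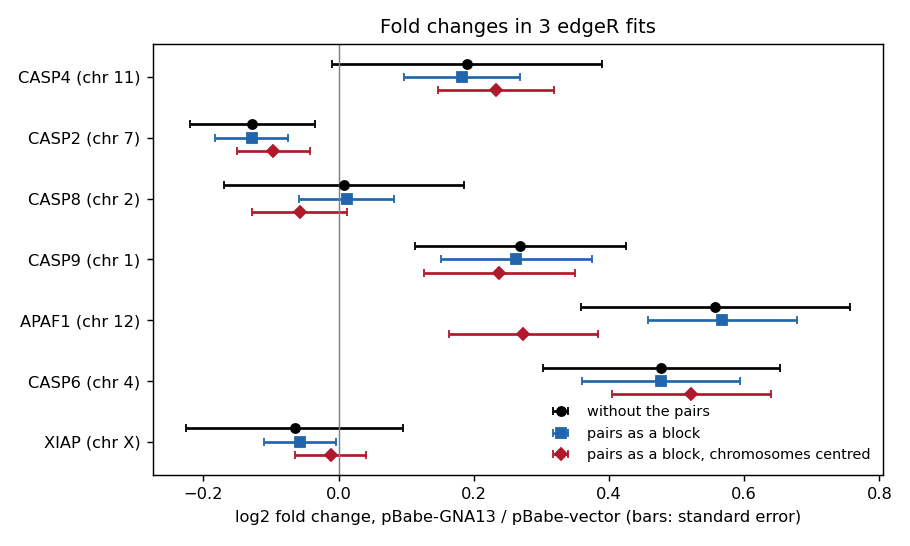
Log2 fold change of the 7 genes with its standard error in the fit without the pairs (black circles), with the pairs as a block (blue squares) and with the block and each chromosome centred on its median (red diamonds). With the block, centring moves APAF1 from 0.57 to 0.27 and CASP6 from 0.48 to 0.52. The bars are shorter with the block.

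Levels of different genes were compared as CPM per kilobase of merged exons, since longer transcripts give more reads. In pBabe-vector XIAP came first with 14.5 ± 2.66, followed by CASP2 with 6.998 ± 0.248, CASP8 with 3.72 ± 0.691, CASP6 with 2.92 ± 0.361, CASP4 with 2.06 ± 0.332, CASP9 with 1.42 ± 0.113 and APAF1 with 0.894 ± 0.197 CPM per kb (SD, n = 3). Neighbours in this order did not overlap over the 3 libraries, except CASP8 and CASP6. In pBabe-GNA13 the order was the same but for CASP6, at 4.07 ± 0.592, which stood before CASP8, at 3.74 ± 0.625 CPM per kb, again with overlap. There CASP4 (2.35 ± 0.506) and CASP9 (1.71 ± 0.225) also overlapped. APAF1 was last in both lines, with 1.32 ± 0.158 CPM per kb in pBabe-GNA13. Merged exons include those of transcripts that LNCaP cells may not make, so these levels are approximate.

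The other genes of the pathway were taken from 7 lists of 76 different genes, of which 58 were in the table and 50 had a mean of at least 1 CPM. None of the 58 was called without the block (edgeR), 5 had an unadjusted p under 0.05 and DESeq2 called 2. The block gave 12 calls among the 58, 8 higher and 4 lower, where 19.7% of all genes were called (9.32% higher, 10.4% lower). With chromosomes centred as well, 7 of these 12 were called, where 13.9% of all genes were. Both counts are near the share over all genes and are no result about the pathway. The median log2FC of the 58 genes was 0.02 in both fits.

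Of the list of other caspases and caspase-like genes, CASP10, an initiator related to CASP8, had few reads, 1.21 ± 0.398 against 1.20 ± 0.241 CPM (SD, n = 3), with a log2FC of 0.01. CFLAR, a caspase-like protein without protease activity that competes with CASP8 for FADD, was at 33.6 ± 5.02 against 28.1 ± 3.77 CPM (SD, n = 3) and rose with the block, with a log2FC of 0.26 in both fits (adjusted p = 0.766 in edgeR, or 0.00473 with the block). With chromosome 2 centred the log2FC was 0.19 with the block and the gene was no longer called (adjusted p = 0.0508 in edgeR). CASP1, CASP5, CASP12 and CASP14 were not in the table used here.

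Over all genes 0.139% were called without the block and 19.7% with it. Around APAF1 and CASP9, none of the 5 genes of the apoptosome list was called in either fit. Those with the smallest p were DIABLO, which encodes the mitochondrial antagonist of XIAP, at 3.00 ± 0.558 against 2.38 ± 0.654 CPM (SD, n = 3) and a log2FC of 0.33 (adjusted p = 0.865 in edgeR, or 0.182 with the block), and AVEN, an APAF1-binding protein, at 0.16 (adjusted p = 0.894 in edgeR, or 0.223 with the block). Of the 9 genes of the IAP family and XIAP antagonists in the table, 1 was called with the block (19.7% of all genes). This was TAB1, a signalling protein that binds XIAP, which fell with the block, with a log2FC of −0.19 (adjusted p in edgeR 0.706 without and 0.0139 with it). It lies on chromosome 22, whose median was −0.15, and relative to it TAB1 was at −0.04 and not called (adjusted p = 0.728 in edgeR with the block).

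Of the 17 genes of the death receptor list in the table, 4 were called higher with the block and 0 lower, CFLAR among them, beside 9.32% higher and 10.4% lower over all genes. TNFRSF1A, the main TNF receptor, had 71.8 ± 3.43 CPM in pBabe-GNA13 against 53.3 ± 3.66 CPM in pBabe-vector (SD, n = 3) with no overlap, and a log2FC of 0.43 (SE 0.09, adjusted p = 0.229 in edgeR, or 6.64e-07 with the block). TNFSF10, which encodes the ligand TRAIL, was at 2.86 ± 0.971 against 1.68 ± 0.600 CPM (SD, n = 3), with a log2FC of 0.76 (adjusted p = 0.662 in edgeR, or 0.00399 with the block). TNFRSF10A, a receptor for TRAIL, had a log2FC of 0.28 (adjusted p = 0.562 in edgeR, or 0.00852 with the block) with no overlap. TNFSF10 and TNFRSF10A were still called relative to their chromosomes (adjusted p in edgeR 0.00409 and 0.00288 with the block), and TNFRSF1A, on chromosome 12, was not (0.0823). In the PIDDosome, CRADD, the adaptor that binds CASP2, had 15.5 ± 0.732 against 11.8 ± 0.890 CPM (SD, n = 3) with no overlap, a log2FC of 0.39 (adjusted p = 0.403 in edgeR, or 0.00174 with the block). It is also on chromosome 12, relative to which it was at 0.10 and not called (adjusted p = 0.538 in edgeR with the block).

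Among the members and pathway genes in the table, 4 are on chromosome 12: APAF1, TNFRSF1A, CRADD and DIABLO. All 4 were above 0, with a median log2FC of 0.41, and 3 were called with the block but none when chromosomes were centred. The other 61 genes, members included, had a median of 0.01. With the block 11 of them were called, beside 19.7% of all genes. With chromosomes centred 8 were, beside 13.9%. Both are near the share over all genes. Of the markers and overlapping genes on chromosome 12, VWF was called with the block when chromosomes were centred (adjusted p = 0.00806 in edgeR). KRT8, KRT18, DCN and ANKS1B were not.

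Of the 25 genes listed for the inflammatory caspase pathway of CASP4, 13 were in the table and 7 had at least 1 CPM on average. GBP2, an interferon-induced GTPase, was lower in each pBabe-GNA13 library, with 2.73, 1.94 and 2.47 CPM (std, replicate 2, replicate 3) against 3.53, 5.46 and 8.51 CPM in pBabe-vector (replicates 1, 2 and 3). It had a log2FC of −1.29 (SE 0.33, adjusted p = 0.306 in edgeR), or −1.22 with the block (SE 0.19, adjusted p = 2.70e-05 in edgeR). Relative to its chromosome, 1, GBP2 was called as well (adjusted p = 3.08e-05 in edgeR with the block). GSDMD, the gasdermin cut by CASP4, had 26, 41 and 10 reads in pBabe-GNA13 (std, replicate 2, replicate 3) and 6, 9 and 13 reads in pBabe-vector (replicates 1, 2 and 3). The lines overlapped, 2 of 3 pairs were higher, and its log2FC of 1.45 (SE 0.60, adjusted p = 0.574 in edgeR, or 0.0351 with the block) rests on these few reads. It was also called relative to its chromosome, 8 (adjusted p = 0.0376 in edgeR with the block). NINJ1, which ruptures the membrane of dying cells, had a log2FC of 0.19 (adjusted p = 0.665 in edgeR, or 0.0123 with the block) and was not called relative to its chromosome, 9 (adjusted p = 0.463 in edgeR with the block).

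Of the 12 substrates and execution genes in the table, XKR8 and LMNB2 were called with the block, beside 19.7% of all genes. XKR8, a scramblase that caspases activate, was at 9.16 ± 1.16 against 11.5 ± 0.272 CPM (SD, n = 3) with no overlap, a log2FC of −0.33 (adjusted p = 0.603 in edgeR, or 0.0204 with the block). LMNB2, a lamin, had 274 ± 71.0 against 243 ± 55.5 CPM (SD, n = 3), higher in 3 of 3 pairs with overlapping lines. Its log2FC was 0.17 (adjusted p = 0.953 in edgeR, or 0.0348 with the block). XKR8 and LMNB2 were also called relative to their chromosomes, 1 and 19 (adjusted p in edgeR 0.0171 and 0.0315 with the block).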

How the data were processed

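RNA-seq reads (paired-end, 150 nucleotides) of LNCaP libraries were checked by the authors with FastQC (version 0.11.7). By their methods, reads were aligned with STAR to Gencode 38 and aggregated with featureCounts (Rsubread). The counts carry older symbols such as CCDC109B, and whether they come from that annotation was not found in the sources used here. The authors deposited whole-number counts of reads for each gene symbol, although the table is named for CPM. How it was filtered to 17297 genes, and the strand setting, were not found in the sources used here. All 6 columns were used and 0 were left out. The heading of 1 pBabe-GNA13 column carries the tag std and repeats the number 2, which ties it to the line but to no replicate number.

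Counts were TMM-normalized and tested across all genes in R 4.3.3 with edgeR 4.0.16 (glmQLFit, then glmQLFTest), with Benjamini-Hochberg adjustment over all genes. The design had allowed for log2 CPM values, in which case limma would have been used. Deviations from the group means correlated within each pair (r of 0.659, 0.807 and 0.888 over 12778 genes, which are not independent replicates), so the pairs were treated as pairs. Log2 CPM used a prior count of 2. Each chromosome was centred by subtracting the median log2 fold change of its genes with a mean of at least 1 CPM as an offset. The scripts were tested on simulated data. Alternatives were DESeq2 1.42.0, limma 3.58.1 (limma-trend), RLE size factors, keeping genes over 1 in mean log2 CPM, edgeR's newer quasi-likelihood method, and leaving out libraries or pairs. Of 17297 symbols, 14402 were matched to Gencode 44 (GRCh38), some through RefSeq synonyms, since the table holds older symbols. The members had between 168 and 6771 reads per library. Without molecular identifiers, reads are not independent molecules, so these read numbers are not counts of molecules.

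The 7 members and the lists of pathway genes were chosen with earlier results of these data known. Named are the 7 members, other caspases and CFLAR, of each further list the genes called in either fit (at most 5) or else the 2 with the smallest p, the genes overlapping a member and the 5 profiles most like that of CASP4. The replicates are cultures of 1 line each. P-values of edgeR and limma rest on the spread between these cultures. In those fits the spread of each gene is drawn towards a trend over all genes. Some genes of the lists are counted in the totals but are not reported here.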

Additional observations from a re-analysis of the deposited data

How the results depend on the processing

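Without the replicate block 0 of the 7 genes were called, and this stayed so with RLE size factors, a filter on mean log2 CPM over 1, the newer quasi-likelihood method, limma-trend, DESeq2, centred chromosomes and each library left out. With the replicate block 2 were called (APAF1 and CASP6), with the block and centred chromosomes 1 (CASP6), with limma-trend and the block 0, and with the block and 1 pair left out 2 to 3. The pathway genes called were 12 with the block, 7 with the block and centred chromosomes, 1 by limma-trend with the block, 2 by DESeq2, 10, 9 and 7 with the block when the std, replicate 2 or replicate 3 pair was left out, and 0 without any 1 library. Over all genes 24 calls became 3407 with the block, 2400 with centred chromosomes as well, 433 by limma-trend with the block, 280 by DESeq2, 10 after the filter, 5 by limma-trend, 2 to 15 without 1 library, and 3266, 2550 and 2250 with the block when the same pairs were left out. The cause was not tested.

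The median log2 fold change of the 7 genes lay between 0.14 and 0.35 without 1 library, the highest without replicate 3 of pBabe-GNA13, and between 0.13 and 0.24 with the block and without 1 pair. APAF1, CASP4, CASP6, CASP9 and CASP2 kept their direction in every alternative run, but not their size. Without 1 library CASP4 ranged from 0.05 (without pBabe-GNA13 replicate 2; 0.07 without pBabe-vector replicate 3) to 0.36 (without pBabe-GNA13 replicate 3; 0.30 without pBabe-vector replicate 2). CASP9 ranged from 0.16 and CASP2 from −0.08 (both without pBabe-GNA13 replicate 2) to 0.35 and −0.15, and CASP6 from 0.37 to 0.58 and APAF1 from 0.39 to 0.70. CASP8 turned to −0.06 with centred chromosomes (−0.0624, or −0.0575 with the block), ranged from −0.0970 to 0.17 without 1 library (−0.0189 without the pBabe-GNA13 std library) and from −0.0600 to 0.07 with the block and without 1 pair. XIAP ranged from −0.20 to 0.0614 without 1 library. Depth limits the genes with few reads, such as CASP10 (as few as 29 reads in a library), GSDMD (6) and XAF1 (0 or 1).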
